A study of Rattus norvegicus with 16 samples.

Results

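The 9 receptors described here were P2ry6, P2ry10, P2ry12, P2ry13, P2ry14, Gpr34, Gpr4, Gpr65 and Gpr132, a group of P2Y-like and proton-sensing receptors. They were chosen by name, with earlier results of these data known, as 9 of the 16678 genes that could be named on the array, and were measured by 11 of its 45598 probes. The levels in lung and adipose tissue were compared between rats with house dust mite (HDM) allergy and control rats. In lung, Gpr65 and P2ry13 were differentially expressed and higher in HDM rats. Neither call held with slide row as a block, and at most 1 of them held when a single rat was left out. In adipose tissue no receptor of the group was differentially expressed.

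All animals were male Brown Norway rats aged 7 weeks. Sensitization was by injection under the skin with aluminium hydroxide as the adjuvant, so that both groups carried it. It held 45 µg of HDM for the 5 HDM rats and saline for the 3 control rats, with 1 injection per week over 3 weeks. During 3 further weeks, saline was given through the nose 3 times per week. For the HDM rats only, this saline held 120 µg of HDM. RNA of the lung or adipose tissue of each rat was hybridised to 1 Agilent rat array, which gave 8 arrays per tissue, and the rats were numbered alike in both tissues. The lung arrays lay on 1 slide and the adipose arrays on another, so that slide and tissue cannot be told apart and levels were not compared between tissues. The signal at the 75th percentile of an array ranged from 376 to 488 for the lung slide and from 111 to 240 for the adipose slide, and the number of arrays limited the precision. The labelled tissues carried their markers: all 9 lung epithelial genes of a marker list were well above background on every lung array, and all 8 adipocyte genes on every adipose array. The adipose arrays of HDM rat 1 and control rat 1 stood apart from the rest. Their summed signal of 8 epididymis genes was 4033 and 5299 times the array's 75th percentile, while the other 6 adipose arrays lay at 0.26 to 28.7. HDM rat 2 had 1224 outlier spots in adipose tissue, and no other adipose array had more than 444.

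P2Y receptors are G protein-coupled receptors that sense nucleotides released from stressed or dying cells. P2ry6 answers to UDP, P2ry12 and P2ry13 answer to ADP, and P2ry14 answers to UDP-glucose, and all of them are found on cells of the monocyte and macrophage line. P2ry10 and Gpr34 belong to the same family by sequence but are receptors for lysophosphatidylserine, a lipid of activated cells. Gpr4 and Gpr65 are switched on by extracellular protons and raise cAMP, Gpr4 mainly in endothelial cells and Gpr65 in leukocytes. Gpr132 is grouped with them, although it is only weakly sensitive to acid and also responds to lipids. Each of these receptors is encoded by its own gene, and P2ry14, P2ry13 and P2ry12 lie in this order on chromosome 2 of the GRCr8 assembly.

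The probe sequences below are shown because the lung values of Gpr65 and Gpr34 and those of the second, dimmer probe of P2ry13 were read with them. They were taken from the sequence column of a supplementary table of probes that the study selected in its own lung comparison, which held 5 of the 11 probes. Of those, 3 are shown; the brighter P2ry13 probe, which gave the main values of this gene and has no open reading frame in the sense direction, and the Gpr4 probe are not printed. The capitals mark a stop codon at the end of the open frame of Gpr34.
Gpr65 probe: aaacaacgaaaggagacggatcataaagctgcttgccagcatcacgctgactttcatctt
P2ry13 second probe: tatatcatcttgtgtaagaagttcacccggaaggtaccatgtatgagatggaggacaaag
Gpr34 probe: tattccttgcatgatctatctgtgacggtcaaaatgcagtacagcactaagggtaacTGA

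The RefSeq promoter table of GRCr8 held 7 of the 9 genes, and was searched on both strands for GAGGAA, the core letters bound by the myeloid factor PU.1, in the 250 bases before the start of the gene. These letters, or TTCCTC when read on the other strand, were present in 3 of the 7 promoters and in 23.3% of all 33469 promoters. The stretches of Gpr65, Gpr34 and P2ry10 are printed with TTCCTC in capitals. They lie at chr6:123254659-123254696 on the plus strand, chrX:11785837-11785864 on the minus strand and chrX:76265670-76265707 on the plus strand. A match of 6 letters is a description of the sequence and not a binding site.
Gpr65 promoter: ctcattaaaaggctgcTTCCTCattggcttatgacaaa
Gpr34 promoter: cgagggagctttgggtTTCCTCctttac
P2ry10 promoter: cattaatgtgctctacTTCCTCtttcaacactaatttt

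Levels are given on the log2 scale relative to the 75th percentile of the same array, so that a value of 0 equals that percentile, and each gene was represented by its brightest probe in the tissue. These probes were well above background on every array, with the exception of Gpr65 in adipose tissue, and none was saturated. A gene was called differentially expressed when the fold change was above 1.5 and the adjusted p of limma, corrected over all 45598 probes, was below 0.05. In lung, 2 of the 9 receptors passed in the direction of HDM rats and none in the other direction, compared with 0.482% of all probes higher and 0.373% lower. Over the 16678 genes, each by its brightest probe, the shares were 0.63% higher and 0.492% lower. The 5 HDM rats lay above all 3 control rats for 4 receptors and below them for 1, compared with 4.65% and 4.97% of the probes with a value on all 8 arrays. Without correction, 7 of the 9 receptors and 4641 of the 45598 probes had p below 0.05. The median log2 fold change of the 9 receptors in lung was 0.45, and that of all genes was −0.01. P-values set the difference between the groups against the spread within them, where each rat gave 1 array per tissue. That spread does not separate the rat from the position of its array. As bulk tissue was measured, fewer cells of a type and less RNA per cell cannot be told apart.

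**Figure D1:**
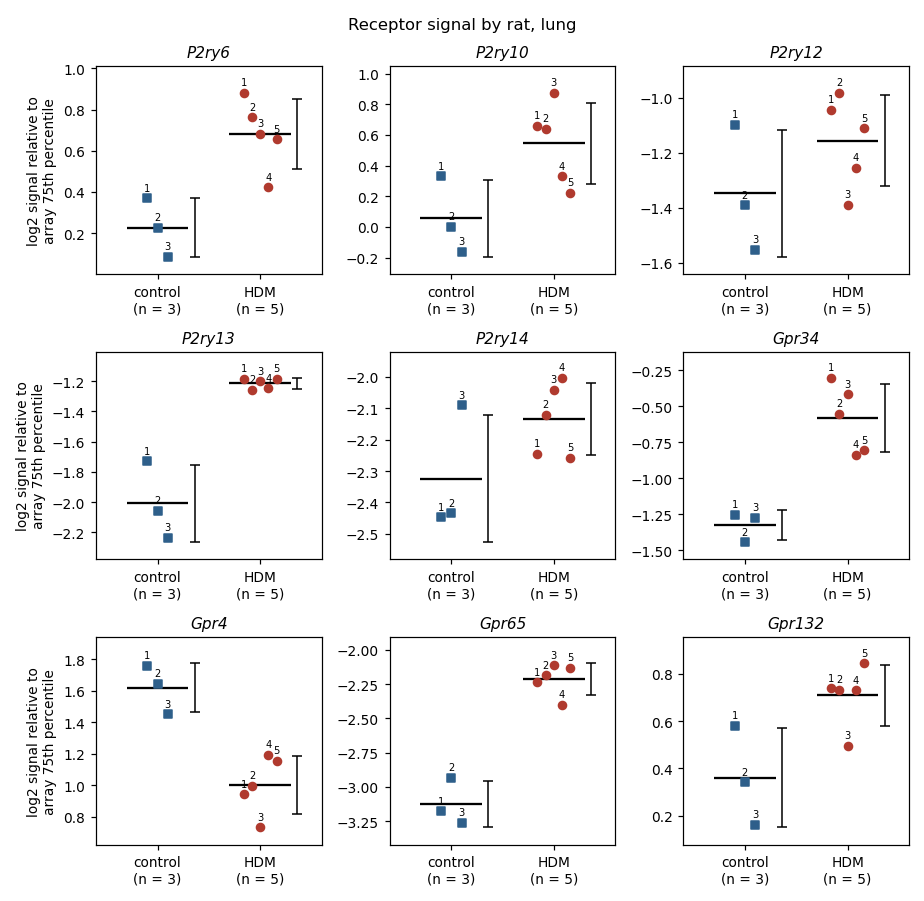
Signal of the 9 receptors in lung, as log2 relative to the 75th percentile of the array, with 1 panel and 1 scale per gene. Squares are control rats, circles are HDM rats, the digit is the rat number, the line is the mean and the bar is the SD; the groups do not overlap for P2ry6, P2ry13, Gpr34 and Gpr65, with HDM rats higher, and for Gpr4, with HDM rats lower.

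Among the nucleotide receptors, P2ry13, an ADP receptor that signals through Gi, had log2 levels of −1.18, −1.26, −1.20, −1.25 and −1.19 in the lungs of HDM rats 1 to 5. In control rats 1 to 3 they were −1.73, −2.06 and −2.24. All HDM rats were higher than all control rats, and the HDM values lay within a narrow range (SD 0.035, n = 5, compared with 0.26, n = 3, in control rats). P2ry13 rose by a log2 fold change of 0.79 ± 0.13 (SE), or 1.73-fold, with an adjusted p of 0.0389 in limma. The second P2ry13 probe, which is dimmer, read −3.25, −3.17, −3.27, −3.71 and −3.32 in HDM rats and −4.18, −4.44 and −4.46 in control rats. The groups did not overlap with this probe either, and its log2 fold change of 1.02 ± 0.15 (SE) also passed (adjusted p = 0.0285, limma). The call was kept without control rat 1 (adjusted p = 0.0414) and was lost when any other rat was left out, with adjusted p-values between 0.0676 without HDM rat 3 and 0.189 without control rat 2. It was also lost with slide row as a block (adjusted p = 0.446, limma), in a fit over both tissues with rat as a random effect (0.752), with median scaling (0.0628), with scaling to Gapdh and Hprt1 (0.0593) and with normexp and quantile normalization, where the log2 fold change of 0.52 was under 1.5-fold.

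P2ry6, the UDP receptor, which signals through Gq, had lung log2 levels of 0.88, 0.76, 0.68, 0.42 and 0.65 in HDM rats and 0.37, 0.23 and 0.09 in control rats. The groups did not overlap, although HDM rat 4 lay close to control rat 1. The log2 fold change of 0.45 ± 0.13 (SE) did not pass the test (adjusted p = 0.230, limma). A second P2ry6 probe was dim, between −5.86 and −4.22 on the lung arrays, and gave −0.05 ± 0.36 (SE). P2ry12, the ADP receptor that is the target of antiplatelet drugs, ranged from −1.39 to −0.98 in HDM rats and from −1.55 to −1.10 in control rats. P2ry14, the receptor for UDP-glucose, ranged from −2.26 to −2.003 and from −2.45 to −2.09. The groups overlapped for both, and the log2 fold changes were 0.19 ± 0.15 (SE, adjusted p = 0.816, limma) for P2ry12 and 0.19 ± 0.13 (SE, adjusted p = 0.755) for P2ry14. Their 95% confidence intervals reached from −0.15 to 0.53 and from −0.10 to 0.48. Neither of these receptors, which lie near P2ry13 on the chromosome, passed the test.

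Of the lysophosphatidylserine receptors, Gpr34 had lung log2 levels of −0.30, −0.55, −0.42, −0.84 and −0.81 in HDM rats and −1.25, −1.44 and −1.28 in control rats. The lowest HDM rat was above the highest control rat. The log2 fold change was 0.74 ± 0.15 (SE), 1.67-fold, and did not pass the test with an adjusted p of 0.0863 in limma. It passed when dim probes were left out before the correction (adjusted p = 0.0360, limma), with array weights (0.0364) and with another background correction followed by quantile normalization (0.0403). Gpr34 also passed when only the probes past 1.5-fold were corrected for (0.00922). That setting selects probes by the change under test, so its adjusted p is no support for a call. P2ry10 ranged from 0.22 to 0.88 in HDM rats and from −0.16 to 0.33 in control rats. HDM rats 4 and 5 lay within or at the upper edge of the control range, and the log2 fold change of 0.49 ± 0.19 (SE) did not pass (adjusted p = 0.400, limma).

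Of the proton-sensing receptors, Gpr65 had lung log2 levels of −2.24, −2.19, −2.11, −2.40 and −2.13 in HDM rats and −3.18, −2.93 and −3.26 in control rats. Each HDM rat was more than 0.5 above each control rat on this scale. Gpr65 rose by a log2 fold change of 0.91 ± 0.12 (SE), or 1.88-fold, with an adjusted p of 0.0189 in limma, which was the lowest of the 9 receptors. The processed signal behind these values was 83.6 to 112 in HDM rats and 40.4 to 57.4 in control rats, against 376 to 488 for the 75th percentile. The call was kept without HDM rat 3 (adjusted p = 0.0387) and without HDM rat 4 (0.0277). It was lost without HDM rat 1 (0.0630), HDM rat 2 (0.0670), HDM rat 5 (0.0554), control rat 1 (0.1005), control rat 2 (0.0528) or control rat 3 (0.0878), with log2 fold changes between 0.84 and 1.01. It was also lost with slide row as a block (adjusted p = 0.266, limma), in the fit over both tissues (0.0846) and with normexp and quantile normalization, where the log2 fold change of 0.50 was under 1.5-fold.

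Gpr4, the proton sensor of endothelial cells, had the opposite sign in lung. Its log2 levels were 0.94, 1.00, 0.73, 1.19 and 1.16 in HDM rats and 1.76, 1.64 and 1.45 in control rats. All HDM rats were lower than all control rats. The log2 fold change was −0.61 ± 0.14 (SE), which is 1.53-fold lower in HDM rats, and did not pass (adjusted p = 0.118, limma). It passed with array weights (adjusted p = 0.0423, limma), with dim probes left out (0.0499) and when only the probes past 1.5-fold were corrected for (0.0135). The last setting selects probes by the change under test, so its adjusted p is no support for a call. Beside it, 11 endothelial genes were measured, among them Pecam1, Cdh5 and Kdr. None of them was differentially expressed or separated the groups in lung, 9 of the 11 had a negative log2 fold change, and their median was −0.09. Their summed signal, of which Kdr made up 33.4%, was 1.00 times the control mean. The part of endothelial cells in the change of Gpr4 was not tested. Gpr132 ranged from 0.50 to 0.84 in HDM rats and from 0.16 to 0.58 in control rats. Only HDM rat 3 lay below the highest control rat, and the log2 fold change of 0.35 ± 0.13 (SE) did not pass (adjusted p = 0.402, limma).

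For a single receptor, an exact two-sided permutation test over the 56 splits of 8 rats cannot go below p = 0.0179, which was reached by the 5 receptors without overlap. HDM rats 1 to 4 lay in slide row 1, and HDM rat 5 and all control rats in slide row 2. Within row 2, where 1 HDM rat faced 3 control rats, the log2 differences were 1.00 for Gpr65, 0.82 for P2ry13, 0.52 for Gpr34, 0.43 for P2ry6 and −0.46 for Gpr4. Their sign is fixed by the absence of overlap between the groups, and none passed the test (adjusted p = 0.342 for Gpr65 and 0.448 for P2ry13, limma with the lone HDM rat assumed to vary like the control rats).

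In adipose tissue, none of the 9 receptors was differentially expressed, and 0% of all probes were (limma; 2 receptors and 4515 probes had an uncorrected p below 0.05). The smallest adjusted p of any probe was 0.0853. No receptor separated the groups, compared with 6.26% of the probes. The median log2 fold change over all probes was −0.15 in adipose tissue with this scaling and 0.14 when arrays were scaled to their medians, and values of the receptors should be read against that shift. The median of the 9 receptors was 0.44 with the first scaling and 0.73 with the second. Over all genes, each by its brightest probe like the receptors, the median was −0.05 with the first scaling.

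**Figure D2:**
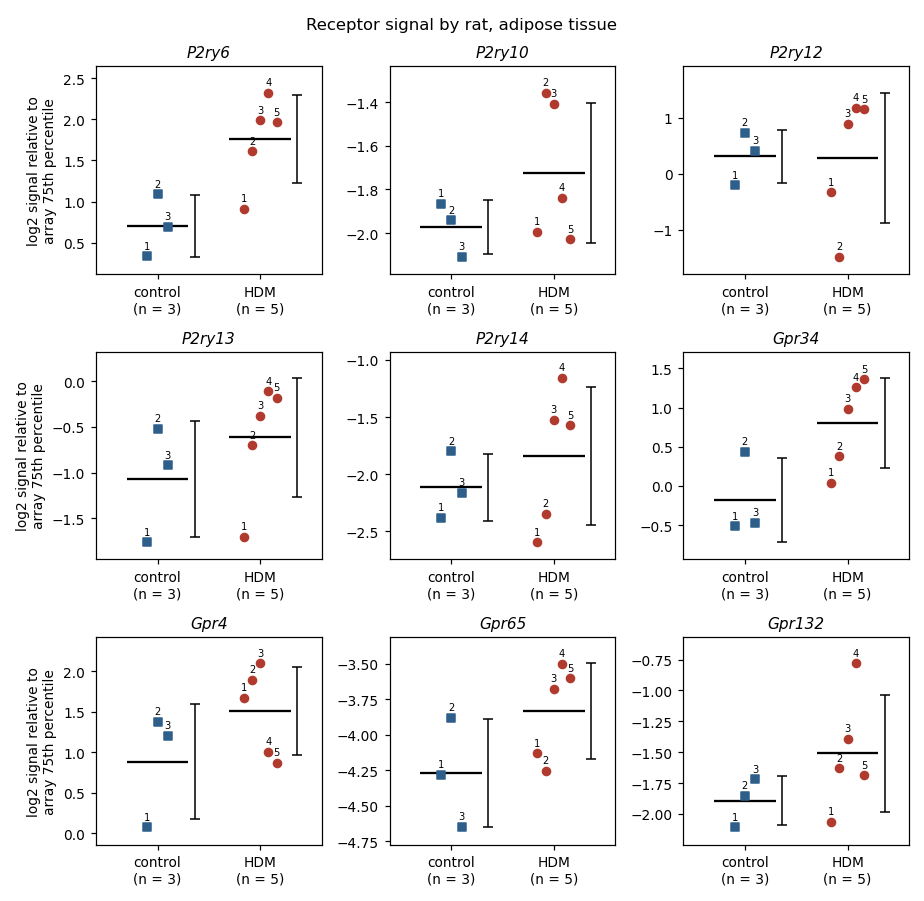
Signal of the 9 receptors in adipose tissue, as log2 relative to the 75th percentile of the array, with the symbols of the lung plot. The groups overlap in every panel, and HDM rat 1 and control rat 1 are among the lower values of their groups for P2ry6, P2ry13, P2ry14 and Gpr34.

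P2ry6 had adipose log2 levels of 0.91, 1.61, 1.99, 2.32 and 1.96 in HDM rats and 0.33, 1.09 and 0.69 in control rats. HDM rat 1 was the only HDM rat within the control range. The log2 fold change of 1.05 ± 0.34 (SE), 2.08-fold, did not pass the test (adjusted p = 0.399, limma), and its 95% confidence interval reached from 0.28 to 1.83. The dim second probe gave −0.24 ± 0.36 (SE). Gpr34 had adipose log2 levels of 0.04, 0.38, 0.98, 1.26 and 1.36 in HDM rats and −0.52, 0.44 and −0.47 in control rats. HDM rats 1 and 2 were below control rat 2, and the log2 fold change of 0.99 ± 0.38 (SE) did not pass (adjusted p = 0.463, limma). These were the 2 receptors with an uncorrected p below 0.05.

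P2ry13 had adipose log2 levels of −1.71, −0.70, −0.38, −0.11 and −0.18 in HDM rats and −1.76, −0.52 and −0.92 in control rats. HDM rat 1 and control rat 1 had similar low levels. Its log2 fold change was 0.45 ± 0.43 (SE, adjusted p = 0.805, limma), 0.11 without control rat 1 and 0.73 without HDM rat 1, and the second probe gave 1.12 ± 0.71 (SE, adjusted p = 0.672). P2ry12 had −0.33, −1.49, 0.90, 1.18 and 1.15 in HDM rats and −0.21, 0.73 and 0.41 in control rats. HDM rat 2, the array with the most outlier spots, was the lowest. Its log2 fold change of −0.03 ± 0.64 (SE, adjusted p = 0.990, limma) turned to 0.41 without HDM rat 2 and to 0.27 with median scaling. P2ry14 ranged from −2.60 to −1.16 in HDM rats and from −2.38 to −1.80 in control rats, with a log2 fold change of 0.28 ± 0.35 (SE, adjusted p = 0.820). P2ry10 had a log2 fold change of 0.25 ± 0.22 (SE, adjusted p = 0.777) and Gpr132 one of 0.38 ± 0.29 (SE, adjusted p = 0.727, limma).

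Gpr65 was dim in adipose tissue. Its log2 levels were −4.13, −4.26, −3.67, −3.50 and −3.60 in HDM rats and −4.28, −3.88 and −4.65 in control rats, and it was well above background on 4 of the 5 HDM arrays and on 1 of the 3 control arrays. HDM rats 1 and 2 overlapped with the control rats, and the log2 fold change of 0.44 ± 0.26 (SE) did not pass (adjusted p = 0.640, limma). Gpr4 had adipose log2 levels of 1.67, 1.89, 2.10, 1.01 and 0.87 in HDM rats and 0.07, 1.38 and 1.21 in control rats. HDM rats 4 and 5 were below control rats 2 and 3, and control rat 1 was far below all others. The change of 0.62 ± 0.40 (SE, adjusted p = 0.678, limma) was 0.22 without control rat 1 and 0.18 without both HDM rat 1 and control rat 1. The summed level of the 14 macrophage genes in adipose tissue was 105, 183, 259, 314 and 274 times the 75th percentile in HDM rats and 87.5, 177 and 145 in control rats. HDM rats 3 to 5 were the highest, and HDM rat 1 and control rat 1 the lowest, as for P2ry13. For P2ry6 and Gpr34, HDM rats 3 to 5 were also the highest, but control rat 3 lay below HDM rat 1. The part of cell composition in these levels was not tested. Without HDM rat 1 and control rat 1 the log2 fold changes were 1.08 for P2ry6 (adjusted p = 0.493, limma), 1.01 for Gpr34 (0.701) and 0.38 for P2ry13 (0.870).

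**Figure D3:**
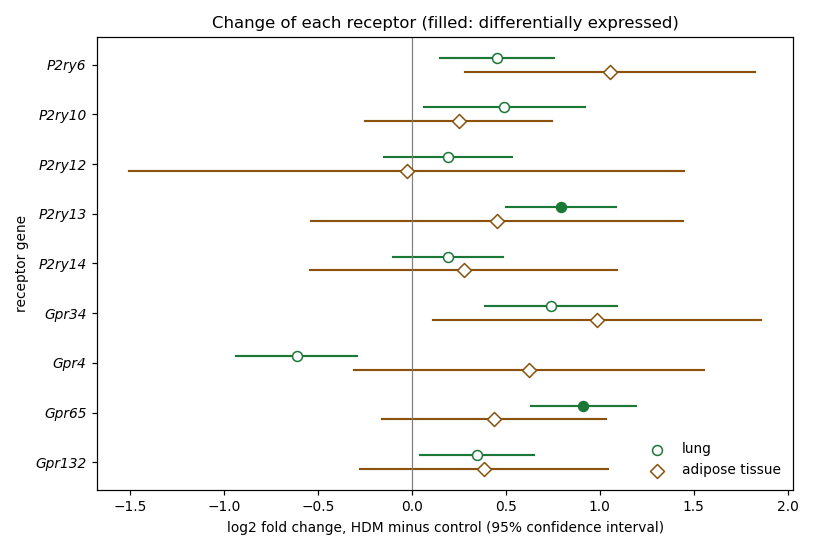
Log2 fold change of each receptor, HDM minus control, with its 95% confidence interval, in lung (circles) and adipose tissue (diamonds), 5 HDM and 3 control rats each. Filled symbols are differentially expressed, which holds for P2ry13 and Gpr65 in lung, and the intervals are wider in adipose tissue for all 9 receptors.

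Whether the change differed between the tissues was tested on the lung minus adipose log2 value of each rat. None of the 9 receptors passed, compared with 1 probe of 45598, 0.00219%. Gpr4, lower in lung and higher in adipose tissue by point estimate, had a difference of −1.24 ± 0.50 (SE), with an uncorrected p of 0.0397 and an adjusted p of 0.628 in limma. For Gpr65 the difference was 0.48 ± 0.27 (SE, adjusted p = 0.695), and for P2ry13 it was 0.34 ± 0.49 (SE, adjusted p = 0.858). For Gpr34 it was −0.25 with a 95% confidence interval from −1.38 to 0.89, and for P2ry6 it was −0.60, with an interval from −1.59 to 0.39. The change of Gpr65 and P2ry13 in lung was therefore not shown to differ from that in adipose tissue.

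Genes with a lung pattern most like that of the 2 differentially expressed receptors were taken from 11911 genes that were well above background on all 8 lung arrays. P2ry13 was most like Ltb, Slc2a6 and Pla2g7 (Pearson r of 0.99 each over 8 arrays). Among the genes most like Gpr65 were Cirbp and Abt1 (0.99 each). These correlations describe 8 arrays that share the group difference and carry no test. The lung log2 fold changes were 0.58 for Ltb, 0.91 for Slc2a6, 1.17 for Pla2g7, 1.20 for Cirbp and 0.23 for Abt1.

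Related receptors were described by a wider list. Of 13 listed P2Y, lysophospholipid and proton receptors, 11 were measured; all 11 had a positive log2 fold change and none was differentially expressed, with a median of 0.32. P2ry1, a Gq-coupled ADP receptor, had log2 levels of −2.81 to −2.44 in HDM rats and −3.09 to −2.85 in control rats and a log2 fold change of 0.31 (adjusted p = 0.410, limma). Lpar6, a receptor for lysophosphatidic acid, had log2 levels of 2.49 to 2.81 and 2.17 to 2.30 and a change of 0.40 (adjusted p = 0.176). Neither overlapped between the groups. In adipose tissue, none of the 11 was differentially expressed. The groups did not overlap for Gpr18 (log2 fold change 0.61, adjusted p = 0.421, limma) and Lpar4, which was not well above background on any control array and at least 1.54-fold higher in HDM rats (adjusted p = 0.385).

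None of the 10 measured P2X and adenosine receptors was differentially expressed in either tissue. The adenosine receptor Adora2a separated the groups in both, with a log2 fold change of 0.52 in lung (adjusted p = 0.183, limma) and −0.59 in adipose tissue (adjusted p = 0.440). Adora2b was lower in all HDM lungs (log2 fold change −0.32, adjusted p = 0.359). P2rx6 was lower in all HDM adipose samples, with −1.76 (adjusted p = 0.396). Of the 14 genes for nucleotide release and breakdown, none was differentially expressed in either tissue; Ada, which converts adenosine to inosine, was higher in all HDM lungs without overlap, with 0.43 (adjusted p = 0.153). None of the 6 enzymes of lysophosphatidylserine passed or separated the groups, and their median in lung was 0.00.

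Of the 10 measured genes for acid handling, Slc16a3, which exports lactate together with a proton, was differentially expressed in lung. Its log2 levels were 2.10, 2.01, 1.94, 2.06 and 2.03 in HDM rats and 1.06, 0.81 and 0.61 in control rats, with no overlap. Slc16a3 rose in lung by a log2 fold change of 1.20 ± 0.12 (SE, adjusted p = 0.00592, limma), and in adipose tissue the value was 0.07 (adjusted p = 0.935). Ldha, which forms lactate, had 0.06 in lung (adjusted p = 0.961). The carbonic anhydrases Car2, Car4, Car9 and Car12 did not pass.

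Downstream of the receptors, none of 23 genes for G proteins, their effectors and desensitization was differentially expressed in lung, and the median log2 fold change was 0.02. Gnai3, a Gi subunit, was lower in all HDM rats (−0.45, adjusted p = 0.243, limma). Plcb2, a phospholipase driven by Gq (0.39, adjusted p = 0.297), and Rgs19, which speeds the inactivation of Gi (0.38, adjusted p = 0.215), exceeded the control range in each HDM rat without passing. Of 13 genes of the cAMP response, Rapgef3, the cAMP-gated exchange factor also called Epac1, was differentially expressed in lung. Its log2 levels were −0.74, −0.72, −0.76, −0.16 and −0.61 in HDM rats and 0.34, 0.41 and 0.54 in control rats, and all HDM rats were lower. The log2 fold change was −1.03 ± 0.16 (SE, adjusted p = 0.0365, limma). Whether the call of Rapgef3 held with slide row as a block or with single rats left out was not examined. The immediate early genes Nr4a3 (−1.78, adjusted p = 0.109) and Nr4a1 (0.78, adjusted p = 0.472) did not overlap between the groups and had opposite signs. No gene of these 2 lists was differentially expressed in adipose tissue.

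Among the leukocyte markers in lung, 6 neutrophil genes and 1 eosinophil gene were differentially expressed, and no macrophage, dendritic cell, T cell, B cell or mast cell gene was. Of 8 neutrophil genes, 6 rose: S100a8 (log2 fold change 4.46, adjusted p = 0.000736, limma), S100a9 (4.09, 0.000376), Mmp8 (3.95, 0.000638), Mmp9 (3.23, 0.000736), Cxcr2 (2.46, 0.000354) and Csf3r (2.18, 0.000750). The remaining ones, Fpr1 (−0.66) and Cxcr1 (−0.44), were lower in all HDM rats without overlap and did not pass. The summed signal of the 8 genes, led by S100a9, was 124 to 270 times the 75th percentile in HDM rats and 10.05 to 11.8 in control rats. Of 14 macrophage genes none was differentially expressed in lung, and the median was 0.08. Fcgr1a (0.82, adjusted p = 0.118), Adgre1 (0.64, adjusted p = 0.230) and Cd68 (0.27, adjusted p = 0.412) lay above the control range in all 5 HDM rats. In all, 9 of the 14 had a positive and 5 a negative log2 fold change, the latter being Marco (−0.40), Mertk (−0.34), Cd163 (−0.27), Siglec1 (−0.21) and Mrc1 (−0.13), which overlapped between the groups. The summed macrophage signal, of which Aif1 made up 23.2%, was 47.1 to 64.0 in HDM rats and 42.7 to 44.3 in control rats. It did not overlap between the groups, and none of the 14 genes was below background in lung.

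Of 7 eosinophil genes in lung, Siglec5 rose (0.97, adjusted p = 0.0425, limma). Whether this call held with slide row as a block or with single rats left out was not examined. Prg3 was not well above background on any control array and exceeded the control bound at least 3.29-fold in the HDM group (adjusted p = 0.0581), and Prg2 had 1.75 (adjusted p = 0.158). The lung values of Hdc among mast cell genes (0.87, adjusted p = 0.123), Cd8a among T cell genes (0.54, adjusted p = 0.102) and Cd79b among B cell genes (0.56, adjusted p = 0.0715) did not overlap and did not pass. Lower in all HDM lungs, without passing, were the dendritic cell genes Zbtb46 (−0.56, adjusted p = 0.149) and Clec10a (−0.49, adjusted p = 0.158), the epithelial genes Sftpd (−0.36, adjusted p = 0.445), Ager (−0.21, adjusted p = 0.517) and Sftpb (−0.19, adjusted p = 0.579), and Pparg among adipocyte genes (−0.49, adjusted p = 0.119). Adam7 of the epididymis list was higher in all HDM lungs (0.39, adjusted p = 0.381). These genes did not always have the sign of their lists. Of 5 B cell genes 2 had a positive and 3 a negative lung log2 fold change (median −0.0014), and of 8 adipocyte genes 6 had a positive and 2 a negative one (median 0.48). The split was 8 positive to 1 negative for T cell genes (median 0.07), 6 to 1 for mast cell genes (median 0.13), 2 to 4 for dendritic cell genes (median −0.19), 1 to 8 for lung epithelial genes (median −0.16) and 5 to 3 for epididymis genes (median 0.18). For 3 of the epididymis genes no lung array was well above background, so their sign is that of background signal. The summed lung signal in HDM rats was 1.05 times that of control rats for T cell genes, 1.10 for B cell genes, 2.06 for eosinophil genes, 1.42 for mast cell genes, 0.831 for dendritic cell genes and 1.07 for adipocyte genes. For platelet genes it was 0.995, of which Pf4 made up 91.8% and where control rat 1 had 15.9, against 8.48 and 7.09 in the other control rats. All 6 platelet genes had a positive lung log2 fold change (median 0.20). Of these 6, 4 were well above background on all lung arrays and 1 on none, and no platelet gene separated the groups in lung. The part of these cells in the change of Gpr65, P2ry13 and Gpr34 was not tested.

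In adipose tissue no marker gene was differentially expressed. S100a9 (3.83, adjusted p = 0.0853, limma), S100a8 (4.66, adjusted p = 0.154) and Csf3r, at least 2.36-fold higher (adjusted p = 0.476), did not overlap between the groups. Of the 8 neutrophil genes, 6 had a positive and 2 a negative log2 fold change (median 0.59). Only 2 of the 8 were well above background on all adipose arrays, and 2 were so on none. Mertk, a macrophage receptor for dying cells, was lower in all HDM rats with −0.90 (adjusted p = 0.330), while the median of the 14 macrophage genes was 0.63. Cd8a was also lower in all HDM rats (adjusted p = 0.343, limma). It was well above background on 2 of the 5 HDM arrays and on all 3 control arrays, so its exact difference is not given. Of the 9 T cell genes, 4 had a positive and 5 a negative log2 fold change. Their median was −0.28, and 0.02 with median scaling. Ppbp of the platelet list was well above background on 1 array per group, and no difference is given for it. Hbb of the erythrocyte list (0.75, adjusted p = 0.441) lay on the higher side in all HDM rats. No gene of the skeletal muscle list passed or separated the groups in either tissue.

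**Figure D4:**
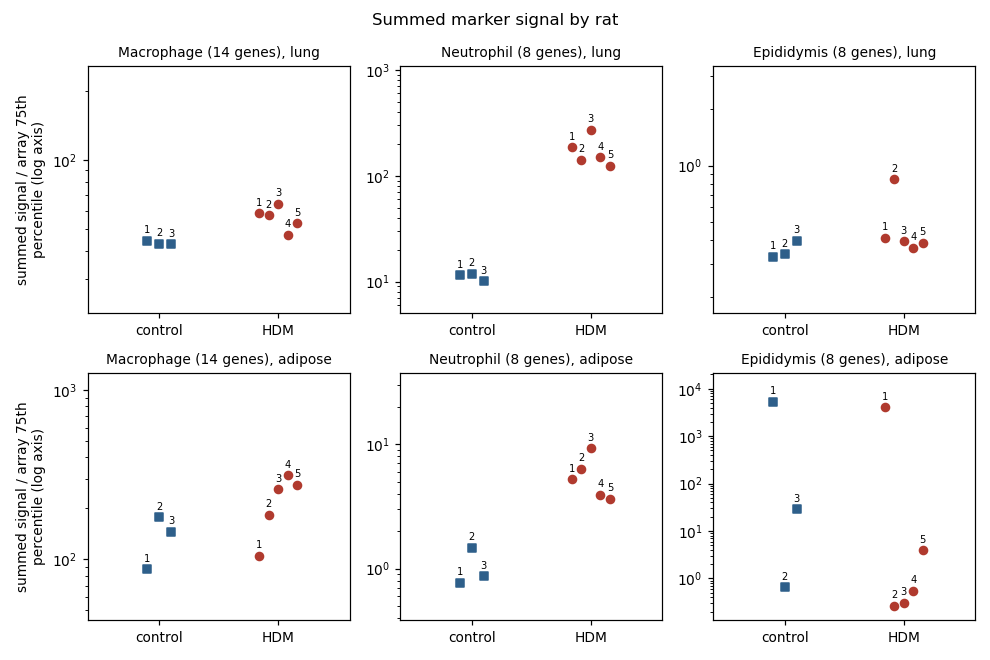
Summed signal of macrophage, neutrophil and epididymis genes on each array, in units of the array's 75th percentile on a log axis, in lung (top) and adipose tissue (bottom). Squares are control rats, circles are HDM rats and the digit is the rat number; in lung the neutrophil sum is 124 to 270 in HDM rats and 10.05 to 11.8 in control rats, and in adipose tissue the epididymis sum is high in HDM rat 1 and control rat 1.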

How the data were processed

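Total RNA (50 ng) of lung and adipose tissue from 8 rats was labelled with Cy3 and hybridised to SurePrint G3 Rat 8x60K arrays. The authors deposited the scanner output of Agilent Feature Extraction 12.0.3.1, which holds the spot intensity after background subtraction, and a table of normalized log2 values of the same arrays, which was used as an alternative. Here, outlier spots were left out, spots of a probe were averaged and the 75th percentile of each array was subtracted from its log2 intensity. Probes were named through their RefSeq transcript (21229 of 45598 probes, 16678 symbols). HDM and control rats were compared in each tissue with limma 3.58.1 (R 4.3.3), with Benjamini-Hochberg correction over all 45598 probes, an adjusted p below 0.05 and a fold change above 1.5. This replaced the methods' t-test, which was an alternative. The fit was checked on simulated data. The brightest probe stood for a gene.

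The 9 receptors and the 21 other lists (206 entries, 194 measured) were chosen with earlier results of these data known. Named from the lists were all differentially expressed genes and up to 3 per list and tissue, by size of change, among those without overlap, and the 3 genes most like each differentially expressed receptor; Ldha and the other genes named without such a change were chosen after their values were seen. Some genes that this rule names are not reported here. A fold written as "at least" sets the mean of the brighter group against the lowest signal well above background on each array of the other group, or the gene's own signal where that was higher. The background correction alternative (normexp, offset 50) used median spot and median background signals. Alternatives covered scaling, background, filters, array weights, blocks and each rat left out. They were examined for the 9 receptors and for no other single gene.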

Additional observations from a re-analysis of the deposited data

How the results depend on the processing

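Of the 9 receptors, 2 were differentially expressed in lung. This count was 4 with the correction made only over probes past 1.5-fold, with dim probes left out and with array weights. It was 1 with median scaling, with scaling to Gapdh and Hprt1 and with normexp and quantile normalization, where the receptor was Gpr34 and both Gpr65 and P2ry13 were lost, and 0 with slide row as a block, within slide row 2 and in a single fit over both tissues (rat as random block). Leaving out 1 rat at a time gave 0 to 1. Over all 45598 probes, 390 passed in lung, compared with 1329, 686 and 705 under the first 3 settings, 100 to 333 with 1 rat left out, 25 with the slide row as a block and 166 in the fit over both tissues. With the replicate number as a block, 0 receptors and 0 probes passed in lung and 0 receptors in adipose tissue; the numbers did not pair the samples (deviations of same-numbered rats correlated at −0.06, −0.08 and 0.05 in lung; for adipose tissue the values were 0.59, 0.14 and 0.097, and each had to exceed 0.1). In lung, P2ry13, which has 2 probes, passed under 10 of 24 alternatives (log2 fold changes between 0.52 and 1.02). Of 23 alternatives for receptors with 1 probe, Gpr65 passed under 12 (0.50 to 1.01), Gpr34 under 4 (0.52 to 0.90) and Gpr4 under 3 (−0.73 to −0.46). The correction over probes past 1.5-fold is among the passes of each of these receptors. It selects probes by the change under test and is no support for a call. In adipose tissue no receptor passed under any of the 26 alternatives, 2 of which, without HDM rat 1 and control rat 1 and without HDM rat 2 as well, were chosen after seeing the data. Array weights called 338 adipose probes and the fit over both tissues 106, against 0.

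Directions turned only for changes that did not pass. P2ry6 turned with its dim second probe (−0.052 in lung, −0.24 in adipose tissue), and in adipose tissue P2ry10 (−0.056) and Gpr4 (−0.014) turned with slide row as a block or within row 2, and P2ry14 with the replicate block (−0.041). P2ry12 in adipose tissue turned to 0.27 with median scaling, 0.43 with scaling to Gapdh and Hprt1, 0.012 with normexp and quantile normalization, 0.22 with array weights and 0.84 with slide row as a block or within row 2. It was between −0.29 and 0.41 with 1 rat left out, turning to 0.12 without HDM rat 1, 0.41 without HDM rat 2, 0.18 without control rat 2 and 0.02 without control rat 3, and was 0.51 without HDM rats 1 and 2 and control rat 1. No receptor's change differed between the tissues under the 21 alternatives computed for that test, which leave out the second probe, the correction over probes past 1.5-fold, slide row 2 alone, the fit with rat as a random block and the 2 settings chosen after seeing the data. Signal over background limited Gpr65 in adipose tissue.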

Other observations

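P2rx3, a receptor channel for ATP known from sensory nerves, had adipose log2 levels of 6.27 in HDM rat 1 and 4.39 in control rat 1, and between −1.17 and −0.56 on the other 6 adipose arrays. The sum of the 10 P2X and adenosine receptors was 79.5 times the 75th percentile in HDM rat 1 and 24.3 in control rat 1, and between 2.80 and 3.47 on the others. These are the same 2 arrays on which the epididymis genes were high.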
